A study of Mus musculus with 49 samples.

Results

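The first 2 h after p53 activation in mouse embryonic stem (mES) cells that still expressed Trim24 were examined in 6 RNA-seq libraries of a series of 49. The members were taken by their labels, with 3 libraries of cells given doxorubicin for 2 h and 3 libraries of the same line at 0 h, and all 20489 genes of the table were considered. The series asks how Trim24, a chromatin-associated member of the TIF1 protein family, shapes the transcription that p53 sets off. Its time course extends to 4, 8 and 12 h, with 3 libraries each, and separate libraries came from wild-type cells of the parental line, 2 activated and 2 untreated. The later time points and the activated wild-type cells were given 1 µM doxorubicin and no degrader. The untreated wild-type cells received neither compound. A few values also come from 3 libraries given 1 µM doxorubicin and 500 nM of the degrader dTAG13 for 2 h. Both groups compared here were mES cells of the strain 129S6/SvEvTac (TC-1 line) whose endogenous Trim24 gene carries a C-terminal FKBP12(F36V)-V5 degron tag. This line was grown from picked clones, so that both groups carry the tag and any property of the clone. The treated cells received 1 µM doxorubicin for 2 h in fresh medium and no degrader (0 nM dTAG13), and the 0 h cells, labelled as having basal p53, received neither compound. Cells were kept in serum with LIF on gelatin, and RNA was total RNA, so that transcripts without a poly(A) tail are included. Whether the 0 h wells also had their medium exchanged is not given in the sources used here. p53 activation, other effects of doxorubicin on DNA and transcription and the change of medium therefore cannot be told apart in this contrast.

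p53 is a transcription factor that is held at a low level by the ubiquitin ligase Mdm2 and is stabilised when DNA is damaged. It binds DNA as a tetramer at pairs of decamer half-sites and activates genes that arrest the cell cycle, trigger apoptosis, repair DNA and restrain growth signalling, as well as genes that switch p53 itself off again. Doxorubicin intercalates into DNA and traps topoisomerase II, which breaks the DNA and stabilises p53. In mES cells p53 activation is also known to lower the expression of pluripotency genes.

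After 2 h, 476 genes were higher and 105 lower than at 0 h among 15515 genes tested, which is 3.07% and 0.677% of them. A gene was called when its adjusted p from limma was under 0.01 and its log2 fold change was at least 0.75 in size. The increases were led by Plk2, a polo-like kinase and p53 target, which rose by 3.01 on the log2 scale, and included Mdm2, Cdkn1a, Btg2, Trp73, Fas and Lif. The decreases were led by histone genes, Chst5, Sox17 and Foxd3 and included the pluripotency factors Sox2, Klf2 and Gbx2. The median log2 fold change over all genes tested was 0.00, and 300 of the increases and 47 of the decreases reached 1 in size. With quantile normalization 382 genes were higher and 154 lower, so that the share of increases among the calls was 71.3% in place of 81.9%. Levels are given per library in CPM (reads of the gene relative to all reads over genes, scaled by the deposited factors), in the order of the replicate numbers and do not correct for gene length.

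**Figure D1:**
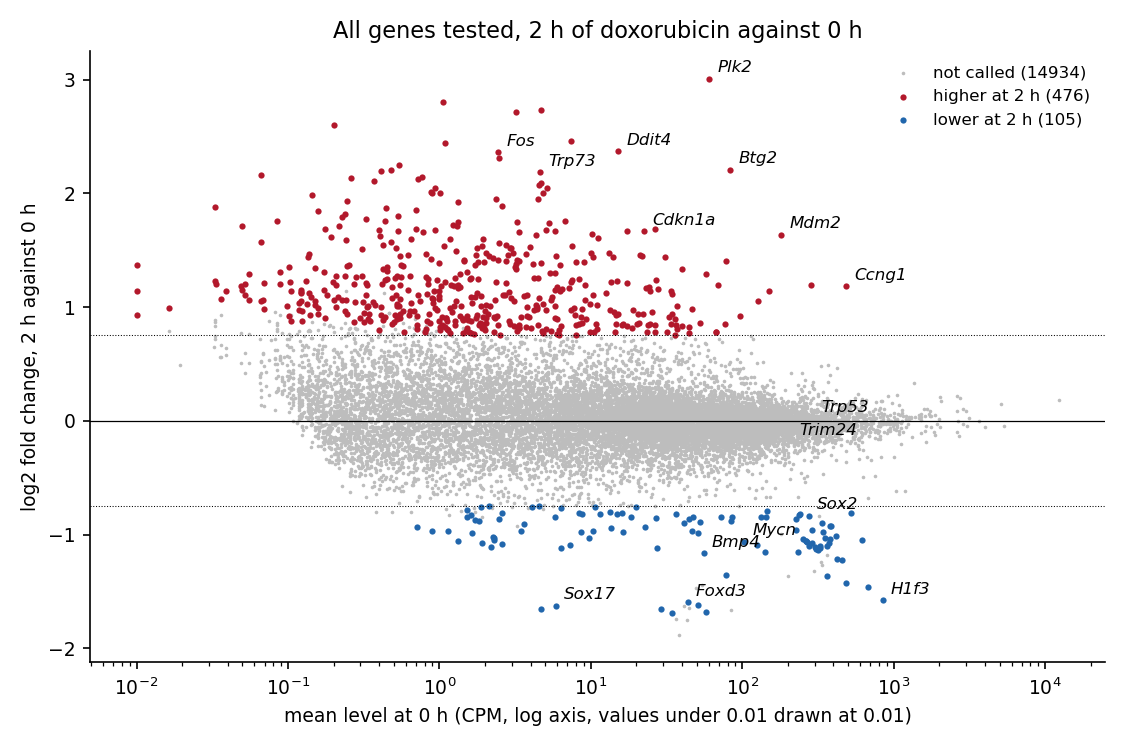
Each point is 1 of the 15515 genes tested, with its mean level at 0 h (CPM, log axis) against its log2 fold change at 2 h over 0 h; red genes were called higher (476), blue genes lower (105), and dotted lines mark the minimum change of 0.75. The largest increases sit at low and middle levels, while the histone gene H1f3 and the pluripotency factor Sox2 lie among the decreases at high level.

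The libraries held 18498494 to 25194595 reads over genes at 2 h and 18426252 to 21852262 at 0 h. All 8 embryonic stem cell markers were detected, and their summed level was 3980 to 4147 CPM at 2 h, against 4913 to 4977 CPM at 0 h. Fibroblast or feeder markers summed to 13.4 to 17.1 CPM over 10 genes at 2 h, against 11.5 to 14.8 CPM at 0 h, and 2 of the 10 had no read in any of the 6 libraries. Col1a1 of that list passed the test at a log2 fold change of 0.78 (1.44, 1.64 and 1.82 CPM, against 0.798, 0.785 and 0.817 CPM at 0 h) and lost the call in 8 of 16 alternatives, among them limma-voom (adjusted p = 0.013) and the omission of 0 h replicate 1, 2 or 3 or of 2 h replicate 2 or 3 (adjusted p = 0.018, 0.013, 0.014, 0.026 and 0.017 in limma). Reads on mitochondrial genes took 2.36% to 2.84% of each library at 2 h, against 2.04% to 2.23% at 0 h, and their part in the results was not tested. The replicates are described as biological, but nothing in the sources used here says that they came from separate days, so the p-values measure the spread between these libraries only.

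Trim24 and Trp53 themselves hardly moved at the RNA level by 2 h. Trim24 (chromosome 6, 37870811 to 37968445, GRCm38) was at 182, 182 and 194 CPM in the 2 h libraries, against 213, 207 and 212 CPM at 0 h. Its groups did not overlap, but its log2 fold change of −0.18 ± 0.06 (standard error) did not reach the thresholds (adjusted p = 0.029 from limma). Trp53, the gene of p53, had 327, 296 and 268 CPM at 2 h and 278, 309 and 289 CPM at 0 h, with overlapping groups and a log2 fold change of 0.02 ± 0.07. Among the relatives of Trim24, Trim66 rose by 2.00 on the log2 scale, with 5.76, 4.34 and 5.22 CPM at 2 h, against 1.25, 1.03 and 0.759 CPM at 0 h. The general corepressor Trim28 stood at 2434, 2588 and 2250 CPM in the 2 h libraries, against 2541, 2723 and 2532 CPM at 0 h, and did not pass the test. Trp73, a p53 family transcription factor, had 25, 23.5 and 18.6 CPM at 2 h and 4.54, 4.42 and 4.85 CPM at 0 h. This is a log2 fold change of 2.19 ± 0.12 (adjusted p = 2.7e-10 from limma).

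Known p53 targets were among the increases in every role that was listed. Of 57 tested genes on 6 lists of feedback regulators and targets, 20 were higher (35.1%, against 3.07% of all genes tested) and 1 was lower, and their median log2 fold change was 0.45, against 0.00 over all genes. Counting those with an unadjusted p below 0.05, 39 had higher and 5 had lower values, against 15.5% and 13.0% of all genes tested. Members of the lists were chosen with earlier results of these data known, so these shares describe the lists and are not a test. Among 7 feedback regulators 3 rose, at a list median of 0.68. Mdm2, the ubiquitin ligase of p53 (chromosome 10, 117688875 to 117710758), had 572, 546 and 574 CPM at 2 h, against 186, 177 and 180 CPM at 0 h. The lowest 2 h library was far above the highest 0 h library, and the log2 fold change was 1.64 ± 0.05, at an adjusted p of 4.0e-13 from limma. Ccng1, cyclin G1, which recruits a phosphatase to Mdm2, was at 1030.0, 1069 and 1188 CPM in the 2 h libraries, against 504, 449 and 494 CPM at 0 h. Trp53inp1, a p53-induced nuclear protein, had 612, 630 and 695 CPM at 2 h and 281, 256 and 310 CPM at 0 h. These amounted to log2 fold changes of 1.18 and 1.19. The phosphatase gene Ppm1d (0.68) and the Mdm2 relative Mdm4 (0.40) had groups that did not overlap but stayed below the minimum change.

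**Figure D2:**
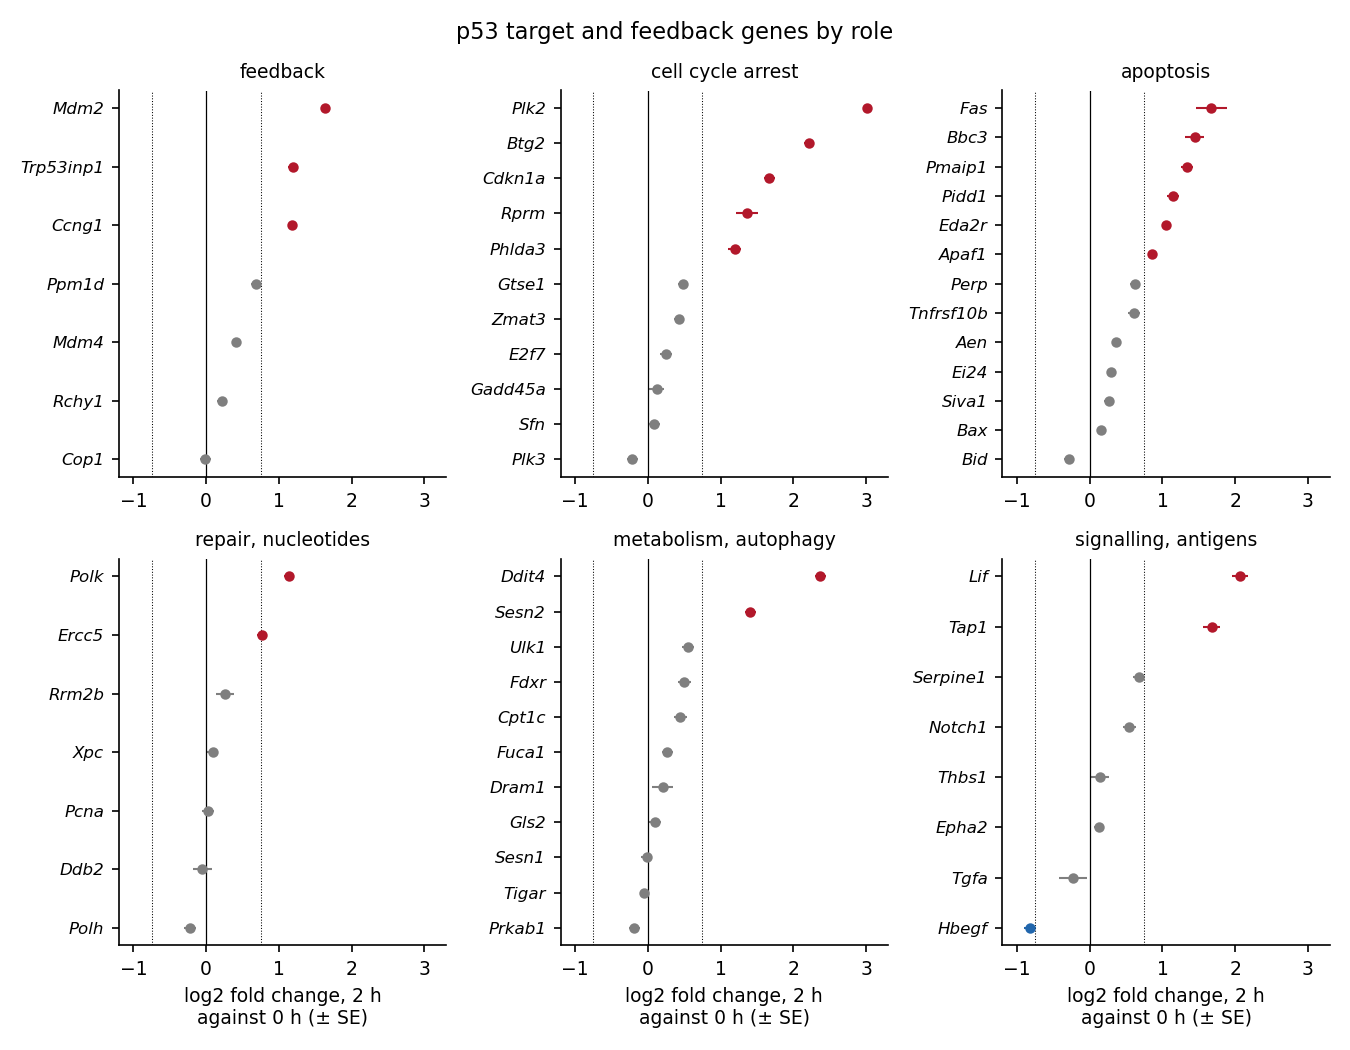
Log2 fold changes at 2 h over 0 h (points) with their standard errors (bars) for the tested members of 6 lists of p53 targets and feedback genes; red and blue mark genes called higher and lower, grey genes did not pass, and dotted lines mark 0.75. Each list holds called and uncalled members, with Plk2 at 3.01, Mdm2 at 1.64, Fas at 1.67 and Lif at 2.07 among the called genes.

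Arrest genes held the largest single increase. Plk2 (chromosome 13, 110395044 to 110400844) was at 470, 495 and 498 CPM at 2 h and at 63.6, 58.8 and 58.5 CPM at 0 h, an 8.09-fold ratio of the means (log2 fold change 3.01 ± 0.06, adjusted p = 1.2e-16 from limma). Btg2, an antiproliferative factor that promotes mRNA deadenylation, had 395, 373 and 385 CPM in the 2 h libraries, against 79.1, 82.6 and 87.1 CPM at 0 h. Cdkn1a, which encodes the cyclin-dependent kinase inhibitor p21 (chromosome 17, 29090979 to 29100722), was at 74.0, 75.9 and 66.5 CPM at 2 h, against 20.9, 23.4 and 23.2 CPM at 0 h. Both groups were tight for these genes, and the log2 fold changes were 2.21 ± 0.06 and 1.67 ± 0.08. Rprm, a mediator of arrest in G2 in human cells, rose by 1.37 and Phlda3, an Akt inhibitor, by 1.19. Of 11 tested arrest genes 5 were called higher (45.5%, against 3.07% of all genes tested). The other 6 lay between −0.21 and 0.48 and were not called, among them Gadd45a, Sfn and Zmat3, with Plk3 the lowest.

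Of 13 apoptosis genes tested 6 rose (46.2%, against 3.07% of all genes tested), at a list median of 0.62, against 0.48 for the arrest genes. Fas, the death receptor, had 2.05, 2.45 and 2.81 CPM at 2 h and was under 1 CPM in each library at 0 h (0.299, 0.785 and 0.525 CPM). Bbc3, which encodes the BH3-only protein Puma, was at 41.8, 38.4 and 34.2 CPM at 2 h, against 14.5, 16.8 and 10.7 CPM at 0 h. Pmaip1, which encodes the BH3-only protein Noxa, had 102, 88.3 and 117 CPM in the 2 h libraries, against 39.0, 40.9 and 40.8 CPM at 0 h. Their log2 fold changes were 1.67, 1.44 and 1.33. Pidd1, a scaffold for caspase-2 activation, rose by 1.14, Eda2r, a receptor of the TNF receptor superfamily, by 1.05, and Apaf1, the core of the apoptosome, by 0.86. Bax, an effector of mitochondrial permeabilisation, stood at 144, 147 and 146 CPM, against 122, 138 and 132 CPM at 0 h, and was not called (log2 fold change 0.16, groups separate). Of the repair and nucleotide supply genes, Polk, a translesion polymerase, rose by 1.14 and Ercc5, a nuclease of nucleotide excision repair, by 0.77. These are 2 of 7 tested (28.6%, against 3.07% of all genes tested). Ercc5 lay just above the minimum change and fell below it when libraries were centred on their medians (0.75 when rounded) and without 0 h replicate 3 (0.73). The damage sensor gene Ddb2 (−0.05) and Xpc (0.09) showed overlapping groups.

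Genes that restrain growth signalling and genes of secreted or surface proteins followed. Ddit4, an inhibitor of mTORC1, was at 87.0, 78.6 and 73.4 CPM at 2 h, against 14.6, 16.3 and 14.4 CPM at 0 h (log2 fold change 2.37 ± 0.08). Its paralogue Ddit4l had 42.3, 42.2 and 41.5 CPM in the 2 h libraries, against 8.67, 6.33 and 7.24 CPM at 0 h. Sesn2, a leucine sensor of the same pathway, stood at 219, 226 and 184 CPM at 2 h and 75.7, 84.1 and 75.9 CPM at 0 h, whereas its relative Sesn1 had 53.5, 51.7 and 61.6 CPM, against 55.0, 53.9 and 60 CPM at 0 h. Ddit4 and Sesn2 were the called members among 11 tested genes of metabolism and autophagy (18.2%, against 3.07% of all genes tested). Lif, the cytokine that these cells also receive in their medium, was at 21.0, 21.5 and 18.3 CPM at 2 h, against 4.34, 5.15 and 4.20 CPM at 0 h. Tap1, a peptide transporter for antigen presentation, rose by 1.67, while Hbegf, an EGF receptor ligand, fell by 0.82 and was the 1 listed target that was lower (19.0, 21.0 and 21.9 CPM at 2 h, against 37.1, 35.4 and 37.5 CPM at 0 h).

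A search of promoters shows what the DNA at some of these genes looks like. RefSeq promoter sequences (GRCm38.p6, 250 bases before to 50 after a start site) matched 12258 of the 15515 genes tested, 366 of the 476 increases and 76 of the 105 decreases. They were searched for the p53 consensus, 2 decamer half-sites side by side, which reads the same on both strands. The C and the G at the core of each half-site had to match, and at most 2 of the 20 bases could depart from the consensus. Such a match was present for 8 of 366 increases (2.19%), 1 of 76 decreases (1.32%) and 53 of 12258 genes tested (0.432%). The match is a description and does not show that p53 binds there, and genes without one may hold a site elsewhere. The 5 sequences below, 20 bases of match in capitals with 20 bases of flank on each side, belong to called genes of different roles and are written 5′ to 3′ on the strand of the gene.
Cdkn1a: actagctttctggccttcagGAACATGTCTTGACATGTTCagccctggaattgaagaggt
Ccng1: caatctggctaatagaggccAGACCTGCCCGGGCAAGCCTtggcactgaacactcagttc
Trp73: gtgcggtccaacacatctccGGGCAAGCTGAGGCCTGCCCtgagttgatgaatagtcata
Cd80: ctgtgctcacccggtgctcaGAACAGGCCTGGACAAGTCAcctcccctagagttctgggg
Zfp365: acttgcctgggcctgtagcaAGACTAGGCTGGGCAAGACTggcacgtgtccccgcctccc
The matches of Cdkn1a (chr17:29090908-29090967, plus strand) and Ccng1 (chr11:40755442-40755501, minus strand) departed from the consensus at 1 base, and began 51 and 195 bases before a start site. The matches of Trp73 (chr4:154097200-154097259, minus strand), Cd80 (chr16:38458802-38458861, plus strand) and Zfp365 (chr10:67912686-67912745, minus strand) departed at 2 bases and began 66, 111 and 63 bases before a start site. A gene can have several start sites, and that of the Trp73 match lies inside the annotated span of the gene (154056249 to 154139875). Which start sites these cells use was not tested. Cd80, a costimulatory ligand of T cells, had 10.2, 11.4 and 12.7 CPM at 2 h, against 3.99, 4.02 and 4.50 CPM at 0 h. Zfp365, a zinc finger gene linked to the repair of replication stress, stood at 75, 74.9 and 75.8 CPM in the 2 h libraries, against 35.2, 36.8 and 31.6 CPM at 0 h. The 1 decrease with a match was Bmp4. The other 3 increases were Gpr132, a lipid-sensing receptor, Mst1, a macrophage-stimulating factor, and Alox12, a lipoxygenase.

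The largest increases with separate groups and at least 1 CPM at 2 h included Plk2, Pou4f3, Hyal1, Cbln2, Ddit4l, Klhdc7a, Ddit4, Fos, Inka2, Xirp1, Btg2, Ttll10, Sbsn and Trp73. Several of them encode proteins of differentiated tissues. Pou4f3, a POU-domain factor of inner ear hair cells, was at 9.36, 9.11 and 9.90 CPM at 2 h, against 1.30, 1.08 and 0.817 CPM at 0 h. Hyal1, a lysosomal hyaluronidase (chromosome 9, 107576950 to 107581699), stood at 23.3, 23.7 and 21.5 CPM at 2 h and 2.89, 3.04 and 3.62 CPM at 0 h. Their log2 fold changes were 2.80 and 2.71, with no overlap between groups. Naa80, an actin acetyltransferase gene whose annotated span overlaps that of Hyal1 (107580669 to 107584048), rose by 1.74, and reads of the overlap cannot be told apart here. Cbln2, a synaptic organiser, rested on 41, 76 and 60 reads at 2 h, against 4, 7 and 1 reads at 0 h. Sbsn, an epidermal secreted protein, was at 3.49, 3.42 and 2.52 CPM in the 2 h libraries, against 0.349, 0.589 and 0.292 CPM at 0 h. Inka2, an inhibitor of the kinase PAK4, Xirp1, an actin-binding protein of striated muscle, and Ttll10, a tubulin ligase-like enzyme, rose by 2.31, 2.25 and 2.2, and Klhdc7a, a kelch-domain gene, by 2.45.

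**Figure D3:**
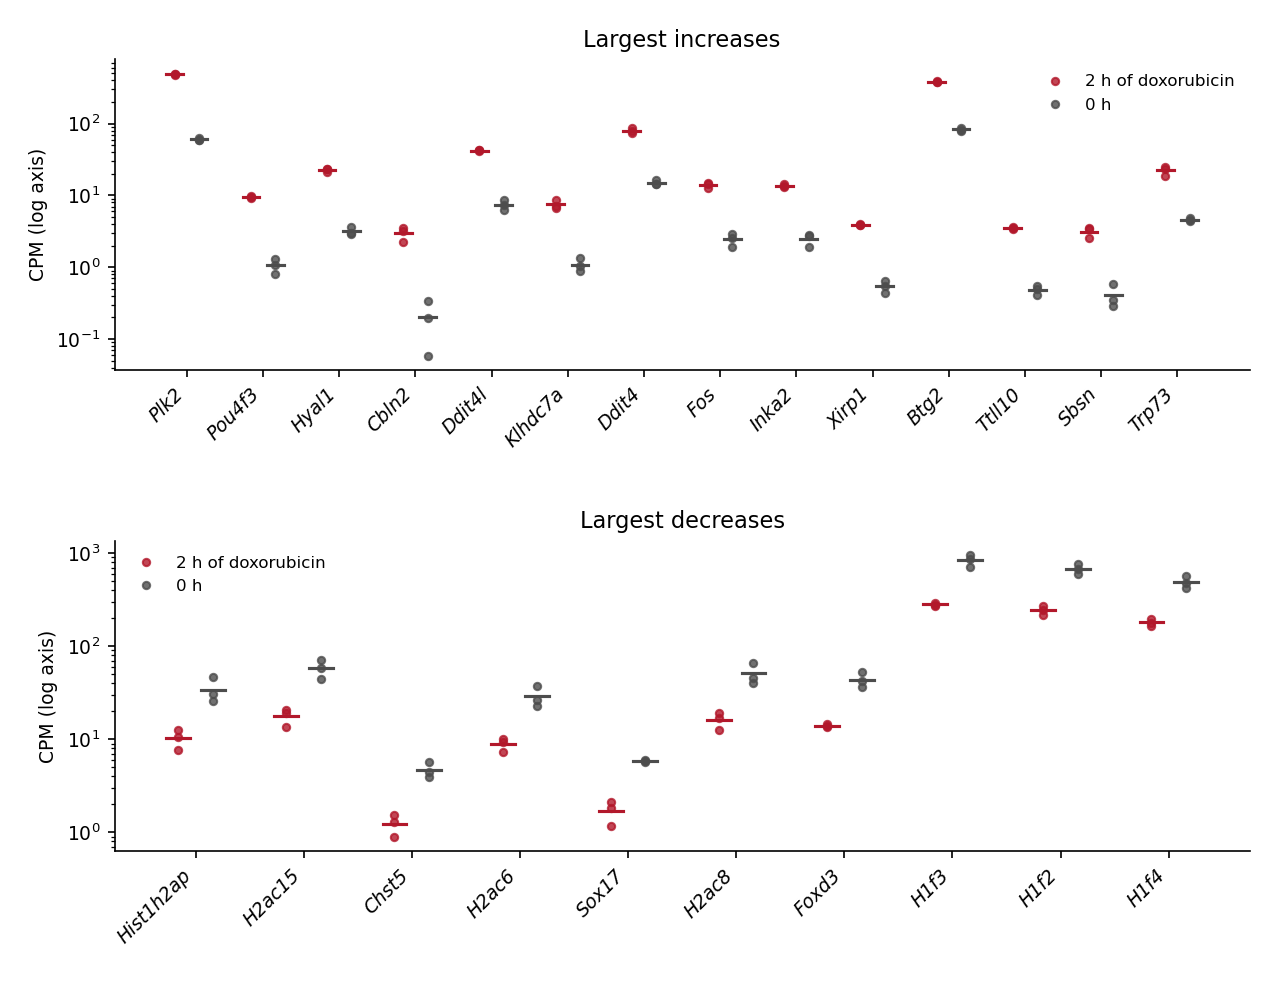
Level in each library (points, CPM on a log axis) with the group mean (line) for the largest increases and decreases that are described, with 2 h of doxorubicin in red to the left of 0 h in grey. Only called genes with separate groups were drawn, so the lack of overlap within each gene follows from their selection. The 0 h points of the histone genes spread more widely than those of Plk2 or Btg2.

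Immediate early genes split in both directions. Of 23 tested, 4 rose (17.4%, against 3.07% of all genes) and 2 fell (8.70%, against 0.677%). Fos, a subunit of the transcription factor AP-1 (chromosome 12, 85473890 to 85477274), had 15.1, 14.2 and 12.7 CPM at 2 h, against 1.89, 2.55 and 2.92 CPM at 0 h (log2 fold change 2.36 ± 0.14, adjusted p = 1.1e-09 from limma). Jun, its partner, was at 17.1, 14.8 and 12.4 CPM in the 2 h libraries, against 8.18, 8.09 and 7.71 CPM at 0 h. Ier5, an early response gene that acts on heat shock factor 1, rose by 1.22. Fosl1, another AP-1 subunit, rose by 1.35 on few reads, and lost its call without 0 h replicate 1 (adjusted p = 0.011) or 2 h replicate 2 (adjusted p = 0.027) and in limma without trend or robust settings (adjusted p = 0.040). Ier3, a survival factor, fell by 1.12 and the zinc finger factor Klf6 by 0.87. Egr1 (log2 fold change 0.67), Atf3 (0.53) and Junb (0.08) were not called. Of 11 heat shock genes tested, 1 was called higher (9.09%, against 3.07% of all genes tested), while 9 had values above 0 and 2 below 0. Before adjustment, 5 were higher and 1 lower at p below 0.05, against 15.5% and 13.0% of all genes tested. The called gene was Hspa1a, an inducible Hsp70, with 16, 18.5 and 13.8 CPM at 2 h, against 7.78, 9.71 and 8.58 CPM at 0 h.

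Ligands of developmental pathways moved at the same time. Of 20 Wnt ligands and targets, 4 ligand genes rose (20% of the list, against 3.07% of all genes) and none of the listed target genes was called. Wnt9a had 4.65, 3.63 and 3.11 CPM at 2 h, against 1.15, 1.18 and 0.876 CPM at 0 h, and Wnt10a, Wnt3 and Wnt8a rose by 1.35, 1.27 and 0.97 from levels under 1 CPM. Wnt8a lost its call without 0 h replicate 3 (adjusted p = 0.016) or 2 h replicate 1 (adjusted p = 0.016) and in limma without trend or robust settings (adjusted p = 0.021). Axin2, a feedback target of Wnt signalling, stood at 16.8, 13.6 and 12.2 CPM at 2 h and 21.2, 22.6 and 20.1 CPM at 0 h, below the minimum change (−0.58). In the BMP and Nodal pathway 3 of 16 genes fell, against 0.677% of all genes. Bmp4, a BMP ligand, was at 24.6, 25.2 and 24.0 CPM in the 2 h libraries, against 55.0, 57.2 and 54.3 CPM at 0 h. Its targets Id3 and Id1, which block bHLH factors, fell by 0.90 and 0.88. Nodal, which signals through Smad2, changed by 0.72 in the other direction (198, 199 and 186 CPM at 2 h, against 119, 122 and 114 CPM at 0 h) and was just short of the minimum change. It passed with quantile normalization and without 0 h replicate 2. Among 15 genes of FGF and ERK feedback 2 were called lower (13.3%, against 0.677%), of which Fgf15 fell by 0.97 and the inhibitor Spry4 by 0.85.

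Values were below 0 for 12 of 14 naive, 7 of 8 general and 10 of 10 formative and primed pluripotency genes, against 48.9% of all genes tested, and few passed the minimum change. Of the 14 naive factors 2 fell (14.3%, against 0.677% of all genes), at a list median of −0.27. Klf2, a Krüppel-like factor, had 72.1, 57.7 and 60.5 CPM at 2 h, against 139, 164 and 122 CPM at 0 h, and lost its call without 2 h replicate 3 (log2 fold change −1.12, adjusted p = 0.025). Gbx2, a homeobox factor downstream of LIF, was at 13.2, 11.8 and 12.4 CPM in the 2 h libraries, against 26.5, 27.3 and 28.7 CPM at 0 h. Sox2, a partner of Oct4, stood at 153, 151 and 158 CPM at 2 h, against 286, 293 and 247 CPM at 0 h, and was the 1 of 8 general pluripotency genes to be called (log2 fold change −0.83 ± 0.07). Its partner gene Pou5f1, which encodes Oct4, had 984, 1033 and 923 CPM at 2 h and 976, 1042 and 944 CPM at 0 h, with overlapping groups. Nanog (433, 453 and 445 CPM, against 626, 588 and 669 CPM at 0 h) and Zfp42 (757, 769 and 807 CPM, against 1225, 1180 and 1168 CPM at 0 h) had separate groups and log2 fold changes of −0.50 and −0.62, under the size required for a call. Foxd3, a forkhead factor of the formative state, had 14.6, 14.0 and 13.6 CPM at 2 h and 42.0, 52.3 and 36.5 CPM at 0 h. This log2 fold change of −1.59 ± 0.10 was the 1 call among 10 formative and primed genes. Otx2, another of that list, was at 14.6, 15.1 and 17.2 CPM in the 2 h libraries, against 26.9, 26.9 and 25.6 CPM at 0 h, and its log2 fold change of −0.75 lay just short of the minimum before rounding.

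Each of 4 lists of other lineages held 1 called gene, where 3.07% of all genes tested were called higher and 0.677% lower. Such a single call in lists of 6 to 11 tested genes says little about a lineage. Sox17, an endoderm factor, was at 1.16, 2.11 and 1.82 CPM at 2 h, against 5.73, 5.99 and 5.84 CPM at 0 h (log2 fold change −1.63 ± 0.17). The other 10 genes of the primitive endoderm list were not called, and the list summed to 1410 to 1498 CPM at 2 h, against 1422 to 1461 CPM at 0 h. Foxa2, a forkhead factor of the streak and endoderm, had 1.05, 1.01 and 0.996 CPM in the 2 h libraries, against 2.04, 2.89 and 2.80 CPM at 0 h, and was the 1 of 10 primitive streak genes to be called. Neurod1, a neuronal bHLH factor, rose by 2.01 (22.0, 19.4 and 20.3 CPM, against 4.49, 4.66 and 5.43 CPM at 0 h), as 1 of 6 neuroectoderm genes tested. Gcm1, a factor of the syncytiotrophoblast, rose by 1.10 as 1 of 9 trophoblast genes. Mycn, a Myc family factor that drives growth, was at 51.7, 49.6 and 45.5 CPM at 2 h and 101, 110 and 96.6 CPM at 0 h, while its relative Myc showed 75.3, 69.6 and 59.3 CPM, against 71.2, 77.5 and 70.1 CPM at 0 h. Chst5, a carbohydrate sulfotransferase, stood at 1.55, 0.886 and 1.29 CPM in the 2 h libraries, against 3.89, 5.64 and 4.44 CPM at 0 h.

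Replication-dependent histone genes, whose transcripts are made in S phase and mostly lack a poly(A) tail, were the largest group of decreases. Of 60 tested, 39 were called lower and 0 higher (0.677% of all genes tested were called lower), and the other 21 were also below 0, at a list range of −1.88 to −0.59 and a median of −1.10. Groups of 3 libraries did not overlap for any of the 60, against 32.0% of all genes tested. Their summed level was 8106, 7713 and 7063 CPM at 2 h, against 15449.6, 19516 and 13729 CPM at 0 h, a ratio of 0.470. An exact two-sided permutation test of the sum gave p = 0.1, the smallest that 3 against 3 allows. As the groups of all 60 genes were separate in the same direction, this test could give no other value, and nothing is concluded from it. The highest 0 h library is replicate 2, and without it the ratio was 0.523. H1f3, a linker histone gene (chromosome 13, 23555032 to 23555807), was at 292, 279 and 273 CPM in the 2 h libraries, against 867, 957 and 714 CPM at 0 h. H1f2 and H1f4, 2 more linker histone genes, had log2 fold changes of −1.46 and −1.42. All 16 tested H2B genes were called, against 4 of 6 for H1, 6 of 15 for H2A, 5 of 10 for H3 and 8 of 13 for H4. The H2A genes H2ac15 (−1.68), H2ac6 (−1.65), H2ac8 (−1.62) and Hist1h2ap (−1.69) were also called. H2ac15, H2ac8 and Hist1h2ap lost their calls without 2 h replicate 1 or 3, and H2ac15 and Hist1h2ap also without 2 h replicate 2 or 0 h replicate 1. The number of histone genes called was 24 without 2 h replicate 1 and 15 without 2 h replicate 3, and it was 57 with limma-voom. The genes are near-identical copies, and the authors kept reads with more than 1 match by drawing a location by chance, so that the value of a single gene is uncertain. The sum does not depend on which of the listed copies was drawn, but reads drawn to a place outside the list are missing from it. Outside this list the polyadenylated variant H2az1 had 383, 392 and 449 CPM at 2 h, against 413, 405 and 419 CPM at 0 h.

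**Figure D4:**
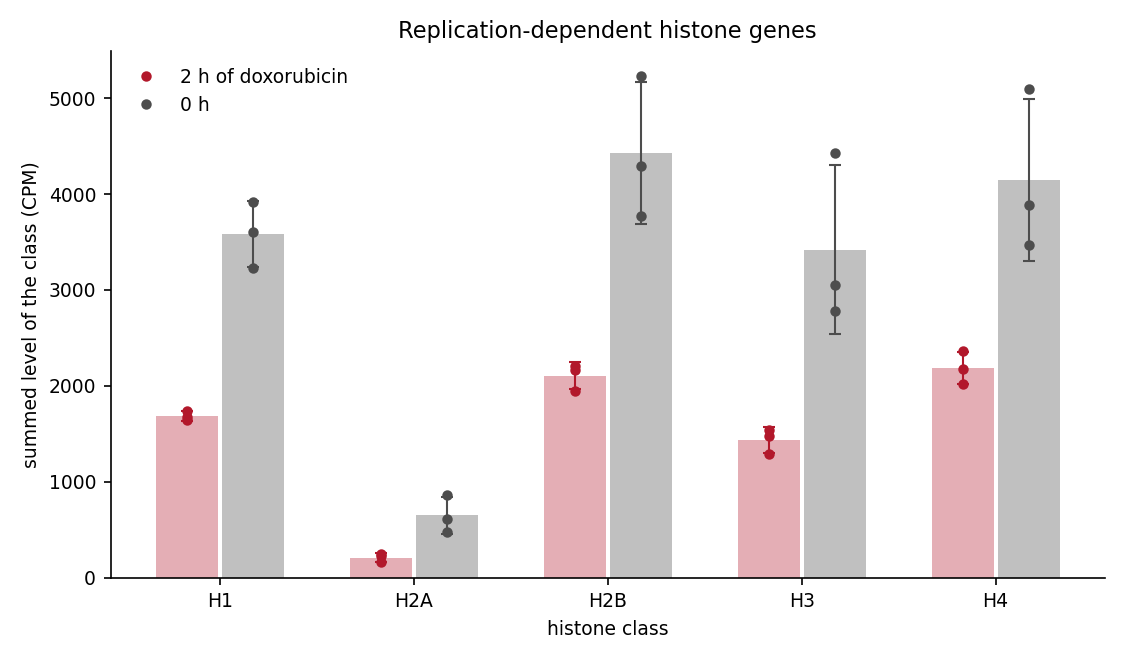
Summed level of the replication-dependent histone genes of each class (CPM) in 3 libraries at 2 h (red, left) and 3 at 0 h (grey, right); bars show means, error bars the SD and points the libraries. In each class the highest 2 h library lies below the lowest 0 h library.

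Several lists of the cell cycle and of stress responses held no called gene at 2 h, which at 3.07% and 0.677% of all genes called is near the background for lists of this size. In limma 0 of 16 G1/S genes, 0 of 26 G2/M genes, 0 of 21 DNA damage response genes, 0 of 13 genes of the ATF4 and unfolded protein response and 0 of 16 interferon response genes were called, and 0 by limma-voom. Before adjustment, p was below 0.05 for 1 higher and 4 lower G1/S genes, for 0 higher and 6 lower G2/M genes and for 1 higher and 4 lower DNA damage response genes, against 15.5% higher and 13.0% lower of all genes tested at that limit. In the ATF4 list 3 were higher and 4 lower at that limit, and in the interferon list 1 was higher and 2 lower. Values were below 0 for 24 of 26 G2/M genes, at a list median of −0.08, against 48.9% of all genes tested. They were below 0 for 9 of 16 G1/S genes and 15 of 21 DNA damage response genes. Mki67, a proliferation marker, had 469, 459 and 500 CPM at 2 h and 477, 497 and 465 CPM at 0 h. Of 83 ribosomal protein genes and 13 mitochondrial genes 0 were called by limma or limma-voom, with 17 and 10 above and 2 and 0 below 0 at an unadjusted p below 0.05, and the 13 mitochondrial genes had a median of 0.22. For 383 genes named Zfp, 11 were higher and 0 lower in limma (2.87%, close to the 3.07% of all genes), with 11 higher and 3 lower by limma-voom and, before adjustment, 46 above and 110 below 0 at p below 0.05. Zfp750, a factor of epidermal differentiation, led them at 2.05, before Zfp362 (2.01), Zfp469 (1.93) and Zfp28 (1.23). Of 15 genes of NF-kB and inflammation tested, 1 was called higher (6.67%, against 3.07% of all genes tested). Values were above 0 for 14 of the 15 and below 0 for 1, against 48.9% of all genes below 0. Before adjustment, 9 were higher and 1 lower at p below 0.05, against 15.5% and 13.0% of all genes tested. The called gene, the chemokine gene Cxcl10, rose by 1.34, and lost its call in limma without trend or robust settings (adjusted p = 0.013). Of 53 olfactory receptor genes tested, 2 were higher (Olfr1410 and Olfr544; 3.77%, near the 3.07% of all genes) and 1 lower (Olfr539), all on few reads, and each of the 3 lost its call in limma without trend or robust settings (adjusted p = 0.011, 0.016 and 0.072). Olfr544 also lost it in limma-voom, with quantile normalization and without any single library but 2 h replicate 3, and Olfr539 without 0 h replicate 1 or 2 h replicate 1, without the filter and with all groups in the fit.

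The called genes differed from the rest in level and in the length of the annotated gene. At 0 h the median level was 1.52 CPM for the increases and 44.2 CPM for the decreases, against 18.7 CPM over all genes tested, and 191 increases (40.1%) were under 1 CPM, against 17.4% of all genes tested. A gene with few reads at 0 h could enter the test through its 2 h libraries alone, and the part of the filter in this share was not tested. Of genes at 1 to 5 CPM at 0 h 6.63% were called higher, compared with 0.181% of genes over 100 CPM. The median span from start to end in the RefSeq annotation was 15322 bases for increases and 3010 bases for decreases, against 22965 bases for all genes tested. Without the histone genes the 66 other decreases had a median span of 4744 bases and a median level of 10.5 CPM. Among 3870 genes with the shortest spans (up to 9603 bases) 4.11% were higher and 2.25% lower, and among 3870 with the longest (55882 bases or more) 1.60% were higher and 0.129% lower. Level and span vary together among genes, and their part in the calls was not tested.

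The same genes were followed at later times, where the 4 h comparison shares the 2 h libraries with the first. Between 2 h and 4 h, 1216 genes were higher and 334 lower among 15816 tested (7.69% and 2.11%). The 476 increases had a median level of 1.52 CPM at 0 h, 3.87 CPM at 2 h, 10.1 CPM at 4 h, 21.0 CPM at 8 h and 22.4 CPM at 12 h. Genes differed in their course. Cdkn1a averaged 22.5 ± 1.38, 72.1 ± 4.99, 75.9 ± 1.48, 61.4 ± 6.13 and 73.2 ± 6.18 CPM (SD, n = 3 each) at 0, 2, 4, 8 and 12 h, and 4 h did not pass against 2 h (log2 fold change 0.08). Lif likewise had 4.56 ± 0.51, 20.3 ± 1.74, 19.7 ± 0.62, 18.0 ± 2.21 and 17.9 ± 1.54 CPM. Sbsn had 16.7 ± 0.55, 70.3 ± 5.22 and 149 ± 9.15 CPM at 4, 8 and 12 h, and the 4 h level was above the 2 h level by 2.29 on the log2 scale. Fas had 12.7 ± 2.41, 37.4 ± 1.96 and 55.6 ± 4.27 CPM at those times. Sesn2 stood at 244 ± 10.2, 130 ± 10.4 and 119 ± 6.66 CPM. The RNA of Trim24 itself had 120 ± 2.52, 67.2 ± 5.07 and 69.7 ± 2.00 CPM at 4, 8 and 12 h. That of Trp53 had 259 ± 9.01, 138 ± 6.16 and 90.8 ± 14.6 CPM, so neither stayed at its 2 h level. Among decreases Sox17 had 1.37 ± 0.31, 1.78 ± 0.56 and 2.39 ± 0.54 CPM at 4, 8 and 12 h, while Bmp4 had 4.85 ± 0.21, 2.12 ± 0.34 and 1.60 ± 0.16 CPM. Histone genes summed to 5978 to 8098 CPM at 4 h, 4245 to 4711 CPM at 8 h and 3275 to 3888 CPM at 12 h.

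**Figure D5:**
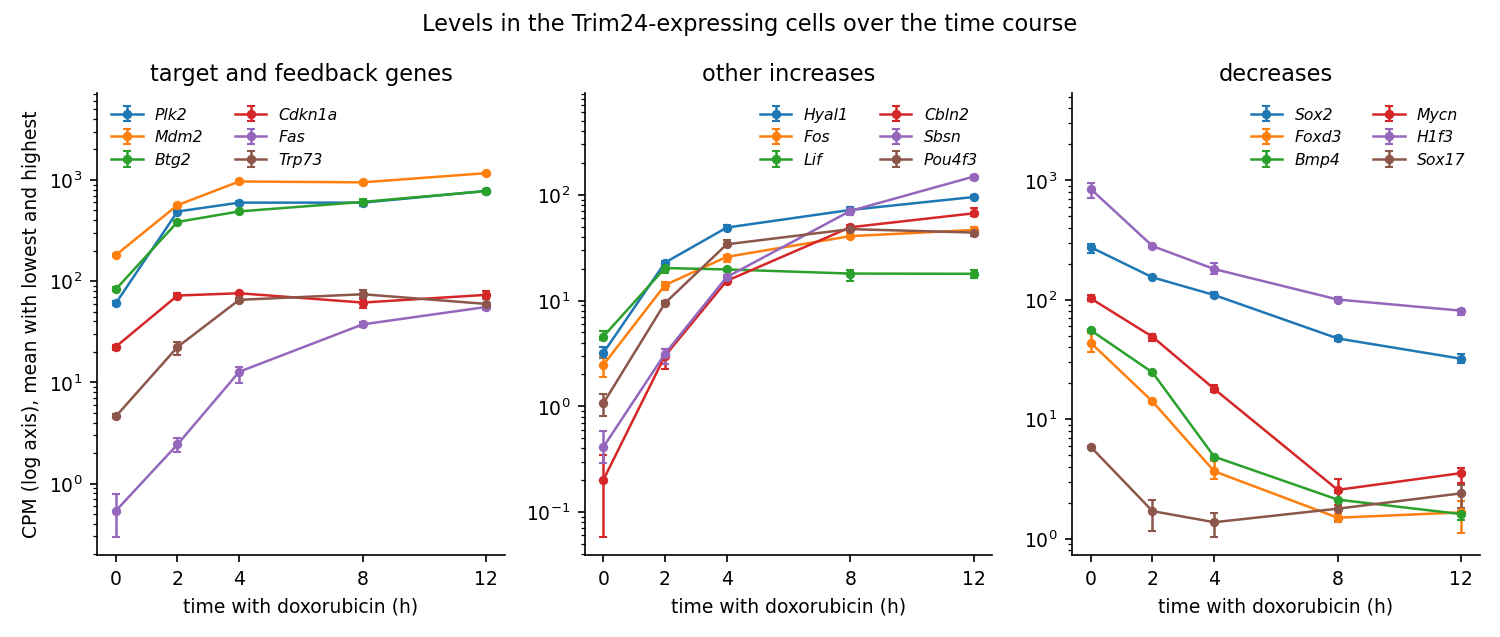
Mean level (points, CPM on a log axis) with the lowest and highest of 3 libraries (bars) at 0, 2, 4, 8 and 12 h of doxorubicin in cells that express Trim24, for 6 genes in each panel. Means of Cdkn1a and Lif stay near the 2 h level, those of Sbsn and Fas are higher at each later time, and those of Bmp4 and Foxd3 are lower at 4 and 8 h than at 2 h.

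Libraries that share no sample with this contrast came from wild-type cells, whose labels give no treatment time. Between activated and untreated wild-type cells 1315 genes were higher and 373 lower among 16448 tested (7.99% and 2.27%). Of the 476 increases at 2 h, 444 were also higher in wild-type cells, which is 93.3% of these and 33.8% of the wild-type increases. Of the 105 decreases 89 were also lower there (84.8% and 23.9%). Without activated wild-type replicate 1 the wild-type calls were 460 higher and 216 lower, and 299 increases and 69 decreases were shared (62.8% and 65.7% of the 2 h lists). Plk2 differed by 2.76 on the log2 scale between activated and untreated wild-type cells, Cdkn1a by 2.16, Mdm2 by 1.86, Sox2 by −1.25 and Foxd3 by −2.38. Histone genes summed to 5469 and 4324 CPM in activated wild-type cells, against 14915 and 14877 CPM in untreated ones. In cells of the degron line given doxorubicin and the degrader (500 nM dTAG13) together for 2 h (3 libraries), Plk2 ranged from 465 to 507 CPM, Cdkn1a from 80.7 to 86.5 CPM and Pou4f3 from 15.7 to 18.2 CPM. Btg2 ranged from 322 to 361 CPM there and Pmaip1 from 72.9 to 90.0 CPM. Against doxorubicin alone for 2 h, means were higher for Cdkn1a and Pou4f3 and lower for Btg2 and Pmaip1. These genes are examples, and the difference was not tested.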

How the data were processed

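For the RNA-seq libraries the authors used bcl2fastq (2.17 or 2.20), STAR against mm10, featureCounts on protein-coding genes except Gm models, and TMM scaling in edgeR. The deposited values are log2 CPM, computed after adding a prior count (8). Whole reads were recovered from the log2 values (100% of values within 0.01 of a whole number) to give CPM without the prior count.

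Groups were compared with limma 3.58.1 in R 4.3.3 (lmFit, eBayes with trend and robust) on the deposited log2 values, with Benjamini-Hochberg adjustment over all genes tested. The study's own fit needs counts, so limma took its place with the same thresholds. A gene was tested when at least 3 libraries (2 for wild type) lay 0.5 above the floor of −1.48. Fold changes include the prior count, which shrinks those of low genes. Depth was 16157342 to 35185256 reads per library over the groups used, with 3 libraries a group (2 for wild type). The pipeline was tested on simulated data.

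Named genes were Trim24, Trp53, Mdm2, Cdkn1a, the 15 largest increases and 10 largest decreases with separate groups and at least 1 CPM in the higher group, and up to 4 called members of each of 37 lists. One of the largest increases is not reported here. Members and lists were chosen with earlier results of these data known, and the histone pattern was adapted to the symbols of the table. Other genes named, among them the uncalled ones given for contrast (such as Bax, Nanog and Nodal), further called members (Jun, Klf6, Phlda3, Eda2r and Apaf1), the genes with promoter matches and those of the closing section, were chosen after their values were seen. Gene positions are from RefSeq (GRCm38.p6; 15478 genes matched).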

Additional observations from a re-analysis of the deposited data

Results flagged for a closer look

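For 11 of the 25 largest changes the level at 4 h differed from that at 2 h in limma, with an adjusted p under 0.01 and a change of at least 0.75, so that the effect of doxorubicin over 0 h differs between the 2 times. Both effects use the same 0 h libraries, which drop out of this difference. On the log2 scale, 4 h minus 2 h, it was 2.29 for Sbsn, 2.25 for Cbln2, 1.81 for Pou4f3, 1.54 for Trp73, 1.37 for Xirp1, 1.14 for Klhdc7a, 1.09 for Hyal1, 1.04 for Ddit4l and 0.87 for Fos among increases, and −1.86 for Foxd3 and −0.89 for Chst5 among decreases. The other 14 did not pass both limits, among them Plk2 (0.29), Btg2 (0.35) and Sox17 (−0.24). A p that misses the threshold does not show equal levels.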

How the results depend on the processing

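Of 581 genes called at 2 h, 320 were called in each of 16 alternatives and 370 in each of the 6 fits that leave out 1 library. Leaving out 1 library gave 466 to 609 calls (371 to 499 higher, 88 to 119 lower) at 2 h, 1469 to 1567 (1138 to 1227 and 310 to 343) for 4 h against 2 h and 676 to 1506 (460 to 1143 and 216 to 396) for wild type. With the replicate number as a block (replicate block) 641 genes were called at 2 h (516 higher, 125 lower), 1581 for 4 h against 2 h and 1672 for wild type. In their deviations from the group means, same-numbered 2 h and 0 h libraries correlated at −0.09, 0.10 and 0.18, and differently numbered ones at −0.30 to 0.25. With 3 libraries a group this does not settle whether the numbers pair them. Relaxing the limit to an adjusted p of 0.05 at any fold change gave 2555 calls (1450 higher, 1105 lower) at 2 h, 6730 (3200 and 3530) for 4 h against 2 h and 5927 (2971 and 2956) for wild type. Quantile normalization gave 939 higher and 510 lower for 4 h against 2 h (main 1216 and 334) and 897 and 569 for wild type (main 1315 and 373); the cause was not tested. The wild-type fit with all groups was not run, as its table holds 2 groups only. Without activated wild-type replicate 1 wild type had 676 calls (460 and 216), the lowest of its range. Of 70 called genes that are named by the rule, 58 kept their call throughout and none reversed. With 3 libraries a group, genes under 1 CPM rest on few reads, and a missed threshold there is no evidence of absence.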

Other observations

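Genes in this section were chosen after their values were seen, and no test of a group was made. Several increases encode brakes on the cell cycle other than Cdkn1a. Cdkn2b, the CDK4 and CDK6 inhibitor p15, had 9.36, 10.7 and 11.6 CPM at 2 h, against 2.04, 2.85 and 2.92 CPM at 0 h. Rbl2, the pocket protein p130, was at 56.9, 52.0 and 56.8 CPM in the 2 h libraries, against 15.9, 16.2 and 19.6 CPM at 0 h. Fbxw7, which marks cyclin E and Myc proteins for degradation, stood at 145, 134 and 145 CPM, against 56.3, 58.8 and 57.5 CPM at 0 h. Btg1, a relative of Btg2, rose by 1.24 and Gdf15, a stress-induced secreted factor, by 1.75 on the log2 scale. Among decreases Sgk1, a kinase downstream of PI3K, had 276, 295 and 321 CPM at 2 h and 618, 608 and 620 CPM at 0 h. Pim1 and Pim3, kinases induced by LIF signalling, fell by 0.99 and 0.83, and any link to the higher RNA of Lif was not tested. Ptch1, the Hedgehog receptor, fell by 0.84 and Fbxo5, an inhibitor of the anaphase-promoting complex, by 0.79.

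Some genes of G protein-coupled receptors were also higher, at low levels, and the share of all such genes that was called was not counted. Among the olfactory receptors, which are also of this kind, 2 of 53 tested were higher (3.77%, against 3.07% of all genes tested). Of all genes tested at 0.5 to 1 CPM at 0 h 6.87% were called higher, and of those at 1 to 5 CPM 6.63%. The thromboxane receptor Tbxa2r had 5.98, 4.81 and 4.22 CPM in the 2 h libraries, against 0.847, 1.08 and 0.876 CPM at 0 h. The neighbouring leukotriene receptor genes Ltb4r1 and Ltb4r2 rose by 1.37 and 1.75, the adrenergic receptor Adra2b by 1.87 and the lipid-sensing receptor Gpr132 by 1.82. Glycogen-targeting subunits of protein phosphatase 1 rose as well, with log2 fold changes of 2.14 for Ppp1r3c, 1.69 for Ppp1r3d and 0.90 for Ppp1r3b. Neural transcription factors beside Pou4f3 included Pou4f1 (14.6, 13.2 and 13.0 CPM at 2 h, against 5.98, 5.94 and 4.20 CPM at 0 h) and Myt1, which rose by 1.93.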
